A study of Mus musculus with 9 samples.

Results

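The 48 genes described here build the machinery of DNA replication and mitosis, and they were taken by gene name from the deposited FPKM table and joined by gene identifier to the read count table, where they are 48 of 55401 genes. By role, 21 of them act in G1/S and S phase and 27 act in G2 and mitosis. Their RNA was measured by RNA-seq of back skin from C57BL/6 male mice aged 6 to 8 weeks in which DNCB (2,4-dinitrochlorobenzene), a small reactive chemical put on the skin, had caused an allergic dermatitis. All mice were shaved on day 0, sensitized on day 1 with 200 μL of 1% DNCB, and challenged from day 4 to day 21 with 100 μL of 0.5% DNCB. The Model group (n = 4) was given water, and the FJDHF group (n = 5) was fed Fangji Dihuang formulation, a traditional prescription of several plant drugs, daily after day 7 until day 28. The question of the comparison was what the formulation changed in skin painted with DNCB. Mice without DNCB were not analysed here, so the effect of DNCB itself on these genes is not given.

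The deposited columns have codes that the labels do not explain. The columns MR1, MR3, MR3_4, MR4_5 and MR5 were taken as FJDHF and the columns MXL1, MXL12, MXL3_4 and MXL_3 as Model, because 5 and 4 are the sizes of these groups and MX abbreviates a Chinese word, moxing, that means model. All differences between the groups and their directions depend on that reading of the codes. No column was matched to 1 mouse, codes with more than 1 digit may mark pooled mice, and n therefore counts libraries, so that a p-value measures the spread between these libraries. Values of a gene are given below in the order of the codes above.

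A dividing cell copies its DNA once and then separates the copies. In G1, the MCM helicase is loaded onto origins by Cdc6 and Cdt1, cyclin E with Cdk2 and the E2F factors start S phase, and Cdc45 and the GINS complex complete the active helicase. In G2, cyclins A and B with Cdk1 and the factor Foxm1 drive entry into mitosis, where kinesins, kinetochore proteins and Aurora and Polo kinases build and check the spindle, and the anaphase-promoting complex, with Cdc20 and Ube2c, ends it. In skin the dividing cells are mainly those of the basal epidermis and of the growing hair bulb, and their number is known to change with inflammation and with the phase of the hair cycle. In bulk skin RNA, fewer dividing cells and less RNA of these genes per cell cannot be told apart.

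The promoters of these genes carry short elements that are known to time transcription within the cycle, namely E2F sites in S phase genes and the cell cycle homology region (CHR) with the CCAAT box of the factor NF-Y in G2 and mitosis genes. The promoter of Mcm6, a replication gene, and those of Cdk1, Top2a and Mki67, 3 genes of mitosis, are shown because they hold these arrangements and belong to members whose levels moved together across the libraries. They are the 250 bases before the RefSeq start of each gene in GRCm38.p6, all on the minus strand of the genome and printed 5′ to 3′ as the gene reads, at chr1:128359706-128359955, chr10:69352913-69353162, chr11:99024190-99024439 and chr7:135716380-135716629. Capitals mark E2F sites (TTTCCCGC, TTTGGCGC or TTTCGCGC), CHR (TTTGAA) and CCAAT boxes (CCAAT), each searched on both strands, so that a box on the other strand reads ATTGG.
Mcm6: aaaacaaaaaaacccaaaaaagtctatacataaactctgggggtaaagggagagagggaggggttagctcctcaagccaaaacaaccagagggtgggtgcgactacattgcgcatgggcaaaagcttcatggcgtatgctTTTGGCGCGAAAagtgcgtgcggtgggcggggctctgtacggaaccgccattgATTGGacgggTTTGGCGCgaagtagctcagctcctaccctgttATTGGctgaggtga
Cdk1: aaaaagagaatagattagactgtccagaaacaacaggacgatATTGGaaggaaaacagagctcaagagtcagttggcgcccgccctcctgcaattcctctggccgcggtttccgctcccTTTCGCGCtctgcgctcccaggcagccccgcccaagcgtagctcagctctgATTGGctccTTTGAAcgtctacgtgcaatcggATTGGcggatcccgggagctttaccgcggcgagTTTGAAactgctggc
Top2a: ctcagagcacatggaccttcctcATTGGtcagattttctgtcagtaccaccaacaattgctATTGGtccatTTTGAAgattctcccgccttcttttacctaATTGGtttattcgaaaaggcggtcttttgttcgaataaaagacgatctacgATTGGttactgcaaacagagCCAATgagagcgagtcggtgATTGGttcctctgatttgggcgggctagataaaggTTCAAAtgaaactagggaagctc
Mki67: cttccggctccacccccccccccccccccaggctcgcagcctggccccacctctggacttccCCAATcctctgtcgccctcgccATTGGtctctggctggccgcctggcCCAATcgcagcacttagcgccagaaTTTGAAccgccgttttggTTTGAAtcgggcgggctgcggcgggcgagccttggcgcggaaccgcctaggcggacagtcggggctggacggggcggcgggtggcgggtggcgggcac

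The Mcm6 promoter held 3 E2F matches, which began 110, 106 and 47 bases before the start, with the first and second overlapping on opposite strands, and no CHR. Cdk1 held 1 E2F match at 131 bases before the start together with CHR matches at 71 and 15 bases. In Top2a, 1 CHR match at 179 bases before the start lay among 6 CCAAT boxes, and 1 at 23 bases lay between all of these boxes and the start. The Mki67 promoter had CHR matches at 116 and 98 bases and 3 CCAAT boxes. No letters of 1 kind of element lay within those of another in these 4 sequences.

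The RefSeq promoter table held 38 of the 48 members, and the search there covered 250 bases before to 50 bases after the start. Not in the table were Mcm4, Gins1, Gins2, Ccne2, Ccna2, Cdc25c, Foxm1, Aurkb, Kif20a and Tpx2. An E2F match was found in 7 of 17 replication genes (41.2%), in 1 of 21 mitosis genes (4.76%), which was Cdk1, and in 2.12% of all 27025 promoters in the table. A CHR match was found in 15 of 21 mitosis genes (71.4%), in 2 of 17 replication genes (11.8%), Cdc45 and Mcm2, and in 20.2% of all promoters. CCAAT boxes were common in both kinds, at 76.3% of the 38 members against 41.1% of all promoters. CHR and CCAAT together were held by 14 of 21 mitosis genes (66.7%), 2 of 17 replication genes and 7.97% of all promoters. These are matches of letters and not measured binding.

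**Figure D1:**
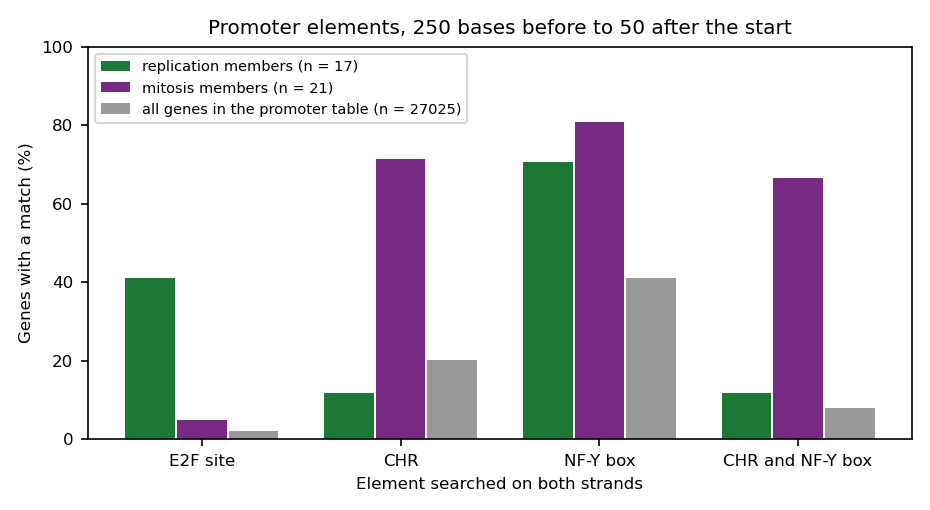
Percentage of genes whose promoter (250 bases before to 50 after the start) held each element, searched on both strands, for 17 replication members, 21 mitosis members and all 27025 genes in the promoter table. E2F sites were found in 41.2% of the replication members and CHR in 71.4% of the mitosis members.

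Total counts were 74648669 to 79474215 per library, and all 48 members were among the 20817 genes that passed the filter on low counts. The tissue label was checked against markers of skin, and each was present in every library. Krt5, a keratin of basal keratinocytes, was at 557 to 3272 CPM (the count of a gene scaled to the total count of its library). Krt10, a keratin of differentiated keratinocytes, was at 991 to 5409 CPM, and Col1a1, the collagen of fibroblasts, at 1381 to 10840 CPM. The libraries differed strongly in make-up within both groups, with the summed level of 10 skeletal muscle genes running from 1827 to 9528 CPM in FJDHF and from 460.2 to 13246 CPM in Model. They also differed in how level followed the GC content of a gene. Differences between all 36 pairs of libraries were far above sampling noise (chi-square per degree of freedom of 137 or more), so that no library was a copy of another.

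No member passed the test of a difference between FJDHF and Model, and the libraries of the 2 groups overlapped for each of the 48 genes. By edgeR's quasi-likelihood test, 0 of 48 members passed an adjusted p of 0.05 with a fold change of at least 2, against 0% of all tested genes. At an unadjusted p under 0.05 the count was again 0 of 48, where 1.57% of all tested genes passed, and no member had groups that did not overlap in CPM, where 0.528% of all tested genes had. DESeq2's Wald test and limma on log2(FPKM + 1) also called 0 members and had 0 members at an unadjusted p under 0.05. Over all 20817 genes, edgeR called 0, with 326 at an unadjusted p under 0.05, DESeq2 called 2 and limma 0.

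The adjusted p of edgeR was 1.00 for every member, and the log2 fold changes (FJDHF minus Model) ran from -0.30 for Bub1b to 0.29 for E2f1. Of the 48 fold changes, 15 were above 0 and 33 below, with a median of -0.057, beside 44.1% above 0 and a median of -0.032 over all tested genes. The 21 replication genes had a median of -0.0050, with 10 above 0 and 11 below. For the 27 mitosis genes the median was -0.10, with 5 above 0 and 22 below. This median ran from -0.28 to 0.12 when single libraries were left out, and was 0.059 with a score of skeletal muscle genes as covariate. On mean log2(CPM + 0.5), FJDHF minus Model was -0.040 over the mitosis genes and -0.00058 over all 48 members. The direction of the median over the 48 members depended on single libraries, as it was -0.21 without MR4_5 and -0.20 without MXL1 but 0.024 without MR1, 0.025 without MR3_4, 0.029 without MXL3_4 and 0.11 without MXL12. With a score of skeletal muscle genes as covariate it was 0.066, and with limma on FPKM values 0.0010.

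For 42 of the 48 members the 95% interval of the fold change stayed within a 2-fold change in either direction. The other 6 were Gins2 (-1.32 to 1.52 on the log2 scale), E2f1 (-0.64 to 1.22), Cdt1 (-0.65 to 1.02), Ccnb1 (-1.12 to 0.60), Cdc25c (-1.08 to 0.65) and Kif11 (-1.10 to 0.62). For these 6 genes a 2-fold difference lay inside the interval in at least 1 direction.

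**Figure D2:**
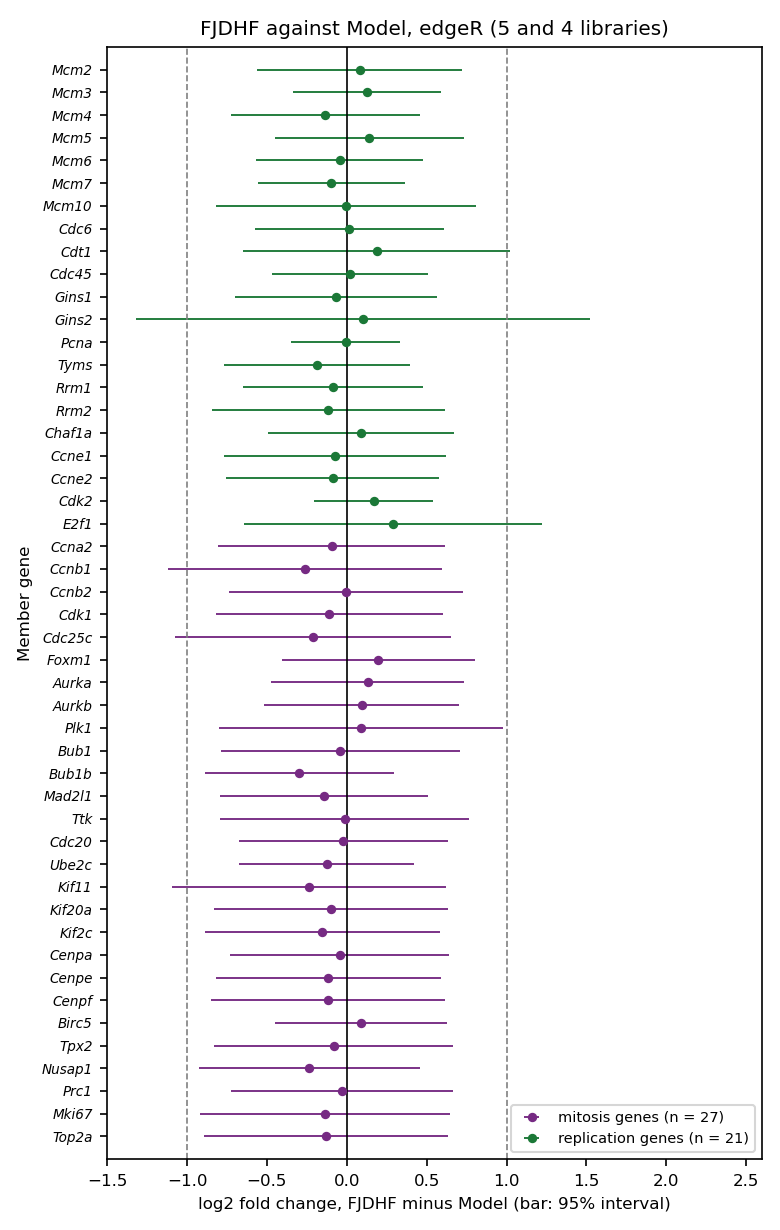
Log2 fold change (FJDHF minus Model) of each of the 48 members from edgeR, on 5 and 4 libraries, with bars for the 95% interval, green for 21 replication genes and purple for 27 mitosis genes, and dashed lines at a 2-fold change. Every interval crosses 0, and those of 42 members stay between the dashed lines.

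The genes of helicase loading and firing were 12, of which 7 had a fold change above 0 and 5 below, with a median of 0.018. Mcm2 to Mcm7 are the subunits of the helicase ring. Mcm2 (gene identifier ENSMUSG00000002870, chromosome 6, 88883474 to 88898780, minus strand, in the deposited table, build mm10) was at 15.9, 26.1, 19.6, 21.3 and 9.20 CPM in the FJDHF libraries and at 22.7, 18.5, 13.98 and 13.5 CPM in the Model libraries. Its highest and lowest libraries, MR3 and MR5, were both FJDHF libraries, and all Model values lay between them. The log2 fold change of Mcm2 was 0.080 ± 0.29 (SE; unadjusted edgeR p = 0.787; exact permutation p = 0.881). The other ring subunits, Mcm3, Mcm4, Mcm5, Mcm6 and Mcm7, had log2 fold changes of 0.13, -0.14, 0.14, -0.045 and -0.10, and the groups overlapped for each.

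Mcm10, which helps to activate the helicase at origins (chromosome 2, 4989714 to 5012791, minus strand), was at 5.04, 9.23, 7.11, 13.9 and 7.65 CPM in FJDHF and at 5.24, 12.98, 10.3 and 5.10 CPM in Model. MR4_5 and MXL12, 1 library of each group, were the highest. For Mcm10 the log2 fold change was -0.0050 ± 0.37 (SE; unadjusted edgeR p = 0.989; exact permutation p = 0.897). Cdt1, a loader of the MCM ring whose protein is known to be destroyed once S phase begins (chromosome 8, 122568015 to 122573128, plus strand), was the least abundant member per length, with a mean of 0.410 FPKM. Its values were 1.26, 2.48, 1.36, 1.33 and 0.883 CPM in FJDHF and 1.97, 0.987, 0.818 and 1.29 CPM in Model, with MR3 and MXL1 highest and MXL3_4, MR5 and MXL12 lowest. The groups overlapped, and the log2 fold change was 0.19 ± 0.38 (SE; unadjusted edgeR p = 0.632; exact permutation p = 0.595). The other loader, Cdc6, ranged from 4.76 to 10.3 CPM over all libraries, and Cdc45, the partner that completes the active helicase, from 7.32 to 13.3 CPM.

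The GINS subunits Gins1 and Gins2 belong to 1 complex but did not vary alike. Gins1 ranged from 3.15 to 6.65 CPM, a ratio of highest to lowest of 2.11. Gins2 (chromosome 8, 120578633 to 120589304, minus strand) was at 18.3, 11.2, 12.3, 8.87 and 1.57 CPM in FJDHF and at 16.7, 2.87, 13.1 and 6.06 CPM in Model, a ratio of 11.7, which was the largest of the 48 members. MR1 and MXL1 were high for Gins2, whereas MR5 and MXL12 were low, so both extremes occurred in both groups. Exons of Gins2 overlap those of Gse1 on the opposite strand, and Gse1 was at 14.4, 42.04, 18.4, 25.1 and 11.5 CPM in FJDHF and 41.5, 13.4, 13.1 and 18.4 CPM in Model. The libraries mark the strand, but the strand setting of the counting is not given in the sources used here. Whether the counts separate reads of overlapping genes on opposite strands is therefore not known.

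The genes of the fork, nucleotide supply and new chromatin were 5, with 1 fold change above 0 and 4 below and a median of -0.087. Pcna, the sliding clamp of the DNA polymerases (chromosome 2, 132249162 to 132253314, minus strand), was the most abundant member per length, with a mean of 35.6 FPKM and a range of 26.6 to 44.6 FPKM. It was at 82.9, 99.1, 89.3, 94.7 and 86.1 CPM in FJDHF and at 86.1, 113, 90.7 and 67.9 CPM in Model. Only MXL_3 was below the FJDHF values and only MXL12 was above them. Pcna was among the steadiest members, with a ratio of highest to lowest of 1.66, and its log2 fold change was -0.0080 ± 0.15 (SE; unadjusted edgeR p = 0.959; exact permutation p = 0.770). The difference in mean log2(CPM + 0.5) that the permutation tests was 0.037, of the other sign.

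Tyms, thymidylate synthase, which makes thymidine nucleotides (chromosome 5, 30058202 to 30073617, minus strand), was at 11.6, 12.8, 13.4, 20.2 and 17.3 CPM in FJDHF and at 13.2, 21.5, 21.5 and 11.03 CPM in Model. The Model libraries fell into a higher pair, MXL12 and MXL3_4, and a lower pair, MXL1 and MXL_3, and the FJDHF values lay between the highest and the lowest Model value. For Tyms the log2 fold change was -0.19 ± 0.26 (SE; unadjusted edgeR p = 0.492; exact permutation p = 0.635). Rrm1 and Rrm2, the subunits of ribonucleotide reductase, which makes deoxynucleotides, ranged from 66.1 to 135 CPM and from 20.9 to 57.5 CPM. Chaf1a, the large subunit of the chromatin assembly factor that places histones behind the fork, ranged from 11.03 to 24.3 CPM and was highest in MR3.

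Of the 4 genes of the G1/S switch, 2 had fold changes above 0 and 2 below. Cdk2, the kinase partner of cyclin E (chromosome 10, 128697939 to 128705030, minus strand), was at 32.8, 40.2, 30.1, 46.5 and 42.6 CPM in FJDHF and at 34.3, 40.4, 29.5 and 29.8 CPM in Model. It had the narrowest range of all members, a ratio of 1.57, and the 3 highest libraries were MR4_5, MR5 and MXL12. Exons of Cdk2 overlap those of Pmel on the opposite strand. Pmel had up to 4293 counts in a library, and Cdk2 had 2228 or more. The log2 fold change of Cdk2 was 0.17 ± 0.17 (SE; unadjusted edgeR p = 0.340; exact permutation p = 0.278). Cyclins E1 and E2 (Ccne1 and Ccne2) had log2 fold changes of -0.076 and -0.089, and each had its highest value in MR4_5 or MXL12.

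E2f1, a transcription factor of S phase genes (chromosome 2, 154559407 to 154569892, minus strand), had the largest positive log2 fold change of the members and went against most of them across libraries. It was at 12.4, 12.1, 12.4, 7.96 and 4.01 CPM in FJDHF and at 11.3, 4.38, 4.76 and 11.1 CPM in Model. MR1, MR3, MR3_4, MXL1 and MXL_3 were high and close together, MR4_5 was lower, and MR5, MXL12 and MXL3_4 were lowest, so the groups overlapped. The means were 9.76 ± 3.72 CPM (SD, n = 5) in FJDHF and 7.90 ± 3.85 CPM (SD, n = 4) in Model, and the log2 fold change was 0.29 ± 0.42 (SE; unadjusted edgeR p = 0.507; exact permutation p = 0.508).

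The genes of the G2/M switch were 6, with 1 fold change above 0 and 5 below and a median of -0.10. Ccnb1, cyclin B1, which activates Cdk1 (chromosome 13, 100778650 to 100786570, minus strand), was at 27.7, 40.1, 27.2, 70.5 and 53.04 CPM in FJDHF and at 27.9, 76.8, 70.1 and 29.1 CPM in Model. MR4_5, MXL12 and MXL3_4 formed a high set, MR1, MR3_4, MXL1 and MXL_3 a low set, and MR3 and MR5 lay between, so the high set and the low set each held libraries of both groups. For Ccnb1 the log2 fold change was -0.26 ± 0.39 (SE; unadjusted edgeR p = 0.512; exact permutation p = 0.667). Cdk1, the kinase that drives mitosis (chromosome 10, 69335146 to 69352938, minus strand), was at 20.6, 25.05, 24.00, 41.7 and 31.6 CPM in FJDHF and at 16.7, 44.8, 38.2 and 20.6 CPM in Model, with the same 3 libraries highest. Its log2 fold change was -0.11 ± 0.32 (SE; unadjusted edgeR p = 0.740; exact permutation p = 0.992). Cyclins A2 and B2 (Ccna2 and Ccnb2) had log2 fold changes of -0.10 and -0.0055.

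Cdc25c, a phosphatase that activates Cdk1, was among the least abundant members, with a mean of 1.29 FPKM. It was at 3.24, 6.68, 3.74, 9.51 and 8.46 CPM in FJDHF and at 5.30, 10.03, 9.15 and 4.06 CPM in Model. MR4_5, MXL12 and MXL3_4 were again high and MR1, MR3_4 and MXL_3 low, and the log2 fold change was -0.21 ± 0.39 (SE; unadjusted edgeR p = 0.598; exact permutation p = 0.643). Foxm1, the transcription factor of the G2/M genes (chromosome 6, 128362967 to 128376146, plus strand), was at 14.5, 25.5, 12.8, 27.7 and 11.9 CPM in FJDHF and at 17.7, 14.9, 15.1 and 15.3 CPM in Model. In FJDHF the values separated into MR3 and MR4_5, above all Model libraries, and MR1, MR3_4 and MR5, below all of them, while the Model libraries were close together with MXL1 standing above the other 3. The log2 fold change of Foxm1 was 0.20 ± 0.27 (SE; unadjusted edgeR p = 0.481; exact permutation p = 0.587), and its level in ranks was lower in FJDHF.

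The mitotic kinases and checkpoint genes were 7, with 3 fold changes above 0 and 4 below and a median of -0.014. Bub1b, the checkpoint protein BubR1 that delays anaphase until chromosomes are attached (chromosome 2, 118598211 to 118641591, plus strand), had the smallest p-value of the 48 members. It was at 18.5, 29.1, 20.6, 42.2 and 27.2 CPM in FJDHF and at 24.7, 41.3, 40.2 and 25.6 CPM in Model. Its lowest libraries, MR1 and MR3_4, and its highest, MR4_5, were all FJDHF libraries, and the 4 Model values lay between them. The means were 27.5 ± 9.31 CPM (SD, n = 5) in FJDHF and 32.96 ± 9.04 CPM (SD, n = 4) in Model, and the log2 fold change was -0.30 ± 0.27 (SE; unadjusted edgeR p = 0.289; exact permutation p = 0.373). In this group of genes the kinases Aurka, Aurkb, Plk1, Bub1 and Ttk and the checkpoint protein Mad2l1 had log2 fold changes from -0.14 for Mad2l1 to 0.13 for Aurka.

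Of the genes that end mitosis, Cdc20, the activator of the anaphase-promoting complex, and Ube2c, its ubiquitin-conjugating enzyme, had log2 fold changes of -0.023 and -0.13. Ube2c was at 10.5, 18.2, 12.2, 16.5 and 14.4 CPM in FJDHF and at 9.83, 17.98, 14.2 and 19.1 CPM in Model, and MXL_3, a library low in most members, was its highest. Exons of Ube2c overlap those of Tnnc2, a troponin of fast skeletal muscle on the opposite strand, which was at 231, 404, 478, 76.7 and 117 CPM in FJDHF and 190.5, 23.9, 123 and 841 CPM in Model, highest in MXL_3 as well. In all, 14 members have exons that overlap a gene on the opposite strand in the GENCODE M21 annotation. They are Mcm7, Cdc45, Gins2, Chaf1a, Ccne2, Cdk2, Ccna2, Cdc25c, Plk1, Cdc20, Ube2c, Kif20a, Nusap1 and Prc1. The limit given for reads of Gins2 holds for each of them.

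The genes of the spindle, centromere and cytokinesis were 10, of which only Birc5, survivin of the chromosomal passenger complex, had a fold change above 0, at 0.089, and 9 were below, with a median of -0.11 and no member at an unadjusted p under 0.05. Nusap1, which bundles spindle microtubules (chromosome 2, 119618298 to 119650160, plus strand), was at 31.04, 32.5, 35.04, 56.1 and 49.2 CPM in FJDHF and at 29.1, 67.2, 62.96 and 28.3 CPM in Model. MXL12 and MXL3_4 were above all FJDHF libraries and MXL1 and MXL_3 were below all of them. The log2 fold change of Nusap1 was -0.23 ± 0.31 (SE; unadjusted edgeR p = 0.469; exact permutation p = 0.714). The spindle motors Kif11, Kif20a and Kif2c had log2 fold changes of -0.24, -0.10 and -0.15, and the centromere and kinetochore genes Cenpa, Cenpe and Cenpf -0.046, -0.12 and -0.12. Tpx2, a spindle assembly factor, and Prc1, the bundler of the central spindle, had -0.083 and -0.030.

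Mki67, the Ki-67 protein that coats mitotic chromosomes and the usual stain for dividing cells (chromosome 7, 135689784 to 135716361, minus strand), was after Pcna the most abundant member per length, with a mean of 21.7 FPKM. It was at 122, 231, 139.7, 376 and 243 CPM in FJDHF and at 157, 333, 303 and 160.4 CPM in Model. Within each group Mki67 varied more than 2-fold, from MR1 to MR4_5 and from MXL1 to MXL12, and the groups overlapped, with all Model values between the lowest and the highest FJDHF value. The means were 222 ± 101 CPM (SD, n = 5) in FJDHF and 238 ± 92.7 CPM (SD, n = 4) in Model, and the log2 fold change was -0.14 ± 0.35 (SE; unadjusted edgeR p = 0.701; exact permutation p = 0.754). Top2a, the topoisomerase that untangles sister chromatids (chromosome 11, 98992943 to 99024189, minus strand), had a mean of 14.9 FPKM and was at 85.2, 136, 90.7, 211 and 162 CPM in FJDHF and at 87.8, 217, 186 and 93.02 CPM in Model. The order of libraries was nearly that of Mki67, and the log2 fold change of Top2a was -0.13 ± 0.34 (SE; unadjusted edgeR p = 0.709; exact permutation p = 0.865).

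While no difference between the groups passed the test, the members varied together from library to library. MR4_5 held the highest value of 22 members and MXL12 of 19, so that 41 of 48 (85.4%) peaked in 1 of these 2 libraries, 1 from each group. Over all tested genes 23.1% did so. The 4 libraries MR1, MXL_3, MXL1 and MR3_4, 2 from each group, held the lowest value of 41 of 48 members, where 45.8% of all tested genes had their lowest value. These 6 libraries were picked from the members' own values, so the shares are descriptions. In 86 other replication and mitotic genes that were not used to pick them, 70 (81.4%) peaked in MR4_5 or MXL12.

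Counted another way, MR4_5 was above the 9-library median for 46 of 48 members, MXL12 for 41 and MXL3_4 for 39. MR5 was above it for 26 members and MR3 for 18. The count was 9 in MXL1, 8 in MR3_4, 3 in MR1 and 2 in MXL_3. Over all tested genes, between 39.6% and 50.5% were above their median in each library.

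**Figure D3:**
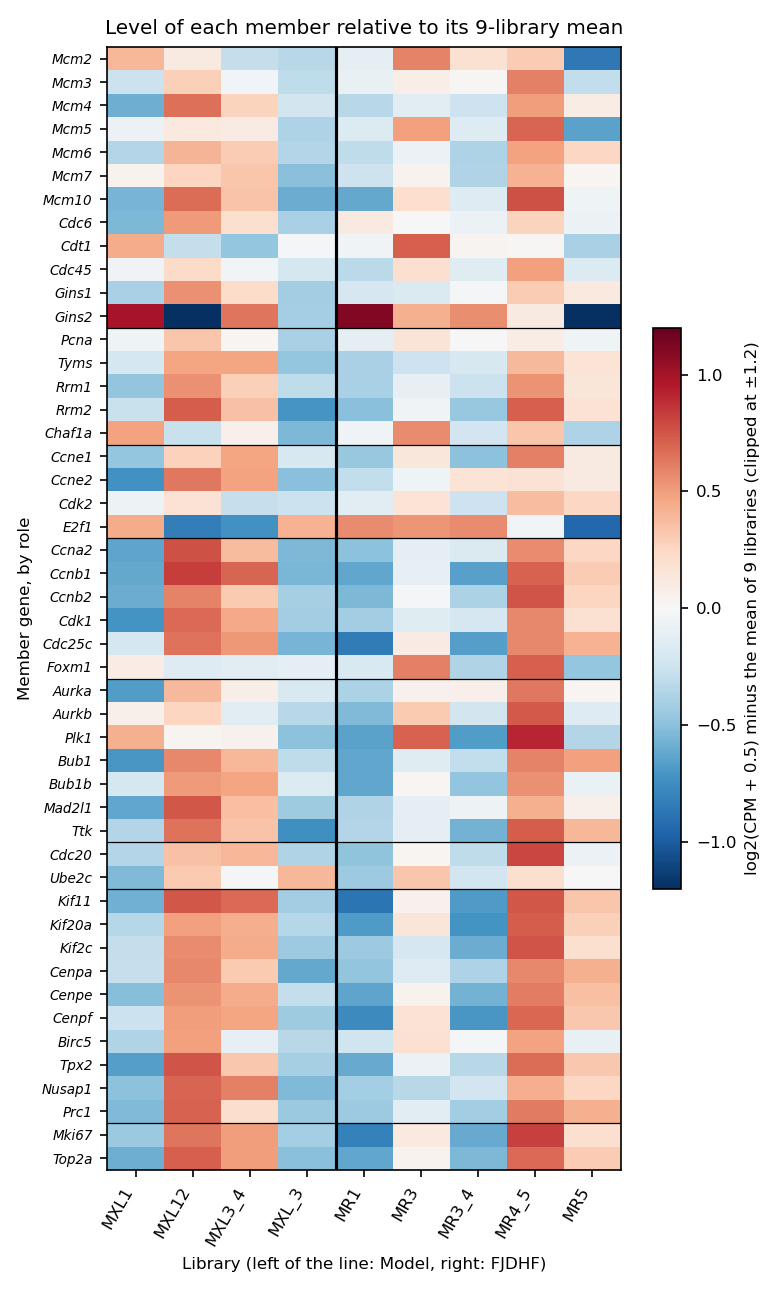
Log2(CPM + 0.5) of each of the 48 members minus its mean over 9 libraries, with Model libraries left and FJDHF libraries right of the black line and members ordered by role. MR4_5 and MXL12 are high for most members and MR1, MR3_4, MXL1 and MXL_3 low, while Gins2, E2f1 and Cdt1 follow another order.

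The mean log2(CPM + 0.5) over the 48 members, called the score, was 4.11, 4.58, 4.21, 5.01 and 4.48 in the FJDHF libraries and 4.20, 4.87, 4.72 and 4.11 in the Model libraries. The group means were 4.48 ± 0.35 (SD, n = 5) and 4.48 ± 0.37 (SD, n = 4). Both groups thus spanned nearly the same range, and their means differed by less than the SD of either group. The mitosis score ran from 4.15 to 5.33 in FJDHF and from 4.28 to 5.23 in Model. The replication score had a narrower span, from 3.99 to 4.59 and from 3.87 to 4.40. The ratio of the highest to the lowest library had a median of 2.62 over the mitosis genes and 2.20 over the replication genes.

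The difference of the mitosis and the replication score showed which libraries had relatively more of the mitosis genes. It was highest in MR5 (0.87), MXL12 (0.83), MR4_5 (0.74) and MXL3_4 (0.69), and lowest in MR1 (0.089), MR3_4 (0.17) and MXL1 (0.19). The groups overlapped here too. MR5 combined the highest difference with one of the lowest replication scores, at 3.99. In MR5, MXL12 and MXL3_4, GC-rich genes as a whole were low relative to GC-poor genes, at -0.71, -0.68 and -0.35 on the log2 scale. In MR4_5 this value was 0.013. The part of GC content in the difference of the 2 scores was not tested.

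**Figure D4:**
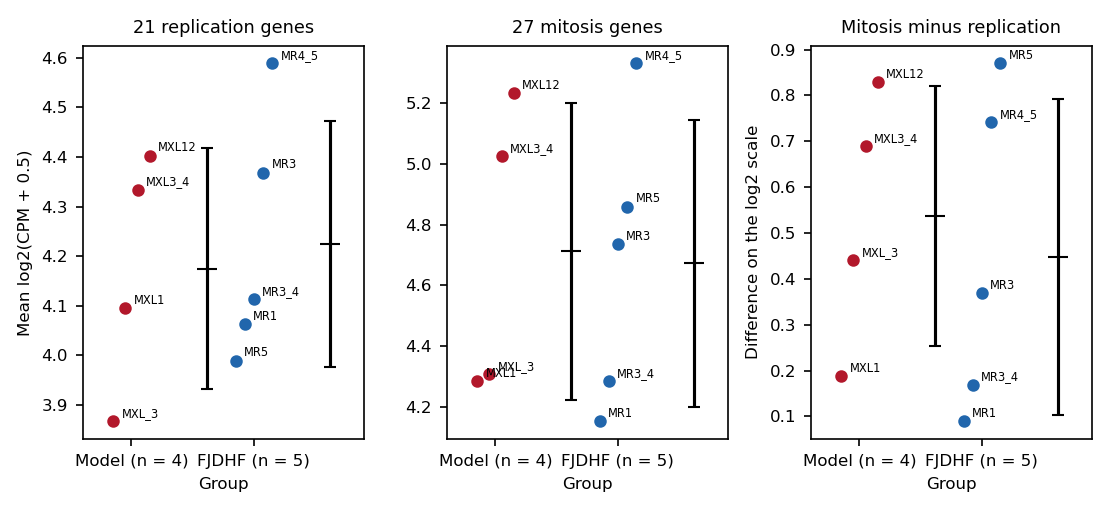
Mean log2(CPM + 0.5) of 21 replication genes (left) and 27 mitosis genes (middle) and their difference (right) in each library, with black bars for the group mean ± SD. Libraries of both groups span nearly the same range, with MR4_5 and MXL12 highest and MR1, MXL1 and MXL_3 among the lowest for the mitosis genes.

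Markers of other cell types moved with this order in part. The 3 libraries with the highest member scores, MR4_5, MXL12 and MXL3_4, had the 3 lowest summed levels of the skeletal muscle list, at 1827, 460.2 and 1825 CPM, where the other 6 libraries had 2311 to 13246 CPM. All 10 genes of that list were above the floor of 3 counts in every library. With the muscle score as covariate 0 members were called. The activated keratinocyte list (Krt6a, Krt16, S100a8 and others, 10 of 10 above the floor everywhere) was at 781 to 4185 CPM in FJDHF and 252 to 2314 CPM in Model, and its highest libraries, MR4_5 and MXL12, were those in which most members peaked. MXL3_4, also high in the members, was at 636 CPM for it.

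The neutrophil list, which shares S100a8 and S100a9 with it and had 8 of 10 genes above the floor in every library, was at 86.3 to 183 CPM in FJDHF and 76.8 to 679 CPM in Model, highest in MXL12. The basal keratinocyte list (10 of 10) ran from 2295 to 6299 CPM in FJDHF and from 1693 to 7826 CPM in Model. It was highest in MXL1 (7826 CPM), a library low in the members, and next in MR4_5 (6299 CPM), the library in which most members peaked, and it was at 2100 CPM in MXL12. The differentiated keratinocyte list (10 of 10) moved more with the groups, at 9246 to 16847 CPM in FJDHF and 3462 to 10624 CPM in Model, where MR3 was below MXL1 and the other FJDHF libraries were above all Model libraries. The list of hair matrix and shaft genes had 9 of 10 genes in the table, all 9 above the floor everywhere. It ran from 638 to 4874 CPM in FJDHF, highest in MR3, and from 1115 to 2849 CPM in Model. Its levels in MR4_5 and MXL3_4 were 3551 and 2849 CPM against 1345 CPM in MXL12. Macrophage genes (10 of 10) ran from 1463 to 3217 CPM in FJDHF and from 1255 to 3333 CPM in Model. Of the 4 libraries low in the members, MXL_3, MR3_4 and MR1 were the highest for macrophage genes but MXL1 was at 1307 CPM, and MXL12, high in the members, was at 2613 CPM. Endothelium genes were highest in MXL_3 (930 CPM), MR3_4 (744 CPM) and MR1 (660 CPM). They were lowest in MXL3_4 (430 CPM) and MR4_5 (503 CPM), but MXL1 was at 508 CPM and MXL12 at 628 CPM. Fibroblast, adipocyte and B cell genes were lowest in MR4_5 (19711, 1794 and 152 CPM), where MXL12 had 29387, 3148 and 198 CPM. T cell genes ran from 35.0 CPM in MXL3_4 to 93.9 CPM in MR1. No marker list had its defining genes at 0 in all libraries, and the part of these cell types in the order of the members was not tested.

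The 7 members that peaked in neither MR4_5 nor MXL12 were Mcm2, Cdt1 and Chaf1a (highest in MR3), Gins2 (MR1), E2f1 (MR3_4), Tyms (MXL3_4) and Ube2c (MXL_3), a list made after their values were seen. Their transcripts had a median GC content of 53.4%, against 47.4% for the other 41 members and 49.2% for all tested genes. The libraries differed in how level followed GC content. The median deviation from the 9-library mean of the 5196 GC-richest genes minus that of the 5197 GC-poorest genes was 0.64 in MXL1 and 0.55 in MR3 on the log2 scale, and -0.71 in MR5, -0.68 in MXL12 and -0.35 in MXL3_4. In MR1, MR3_4, MR4_5 and MXL_3 it lay between 0.013 and 0.20. Libraries of both groups were thus found on both sides.

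When the median deviation of genes of like GC content was subtracted in each library, a step chosen after seeing the data, the span of E2f1 between its highest and lowest library shrank from 1.51 to 0.87 on the log2 scale and that of Cdt1 from 1.18 to 0.56. The span of Gins2 went from 3.18 to 2.92, that of Mcm2 from 1.46 to 1.33, and that of Ube2c grew from 0.92 to 1.55. The order of libraries over the members as a whole was nearly kept. After subtraction 41 of 48 members again peaked in MR4_5 or MXL12, but they were not the same 41. Cdt1 and Ube2c, highest in MR3 and MXL_3 before, now peaked in MXL12, with deviations of 0.33 and 0.69. Cdt1 was then at 0.18 in MR3, and Ube2c at 0.36 in MXL_3. The members' median deviation was 0.53 in MR4_5 and 0.46 in MXL12, against 0.58 and 0.51 before.

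**Figure D5:**
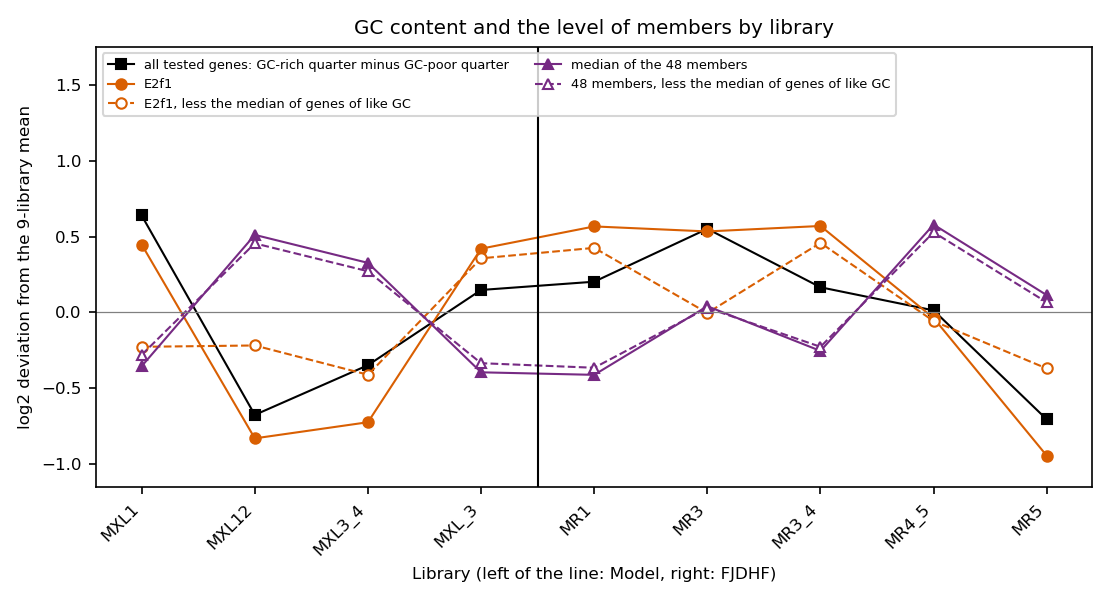
Log2 deviation from the 9-library mean in each library for the 5196 GC-richest minus the 5197 GC-poorest tested genes (black), E2f1 (orange) and the median of the 48 members (purple), with open symbols after subtracting the median of genes of like GC content. E2f1 is low in MXL12, MXL3_4 and MR5, where GC-rich genes as a whole are low, and the members' median keeps its shape after subtraction.

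The remaining genes of the pathway, taken as whole lists, gave no called gene between the groups. Of 36 other replication genes 14 had fold changes above 0 and 22 below, with a median of -0.042, and of 50 other mitotic genes 21 were above and 29 below, with a median of -0.014. None of these was called or had an unadjusted p under 0.05. The closest in the first list were Tk1, thymidine kinase, with a log2 fold change of 0.49 ± 0.46 (SE; unadjusted edgeR p = 0.311; exact permutation p = 0.460), and Pola2, a subunit of DNA polymerase alpha, with -0.19 ± 0.18 (SE; unadjusted edgeR p = 0.313; exact permutation p = 0.222). In the second list, Spc24, a subunit of the kinetochore NDC80 complex, was at 4.96, 4.21, 4.03, 6.68 and 2.86 CPM in FJDHF and at 3.31, 2.91, 3.66 and 2.99 CPM in Model, with MR5 below all Model libraries and the other FJDHF libraries above all of them. Its log2 fold change was 0.47 ± 0.27 (SE; unadjusted edgeR p = 0.115; exact permutation p = 0.0952), and that of Cks1b, a small subunit of the cyclin-dependent kinases, was 0.39 ± 0.36 (SE; unadjusted edgeR p = 0.298; exact permutation p = 0.476).

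The regulators that start or hold the cycle showed the same. Of 5 G1 cyclins and kinases 3 had fold changes above 0 and 2 below, of 9 tested genes of CDK inhibitors and pocket proteins 4 were above and 5 below, and of 13 other E2F factors and subunits of the DREAM repressor complex 5 were above and 8 below. Again none was called or had an unadjusted p under 0.05. Cyclins D1 and D2 (Ccnd1 and Ccnd2), which respond to growth signals in G1, had log2 fold changes of 0.15 ± 0.17 (SE; unadjusted edgeR p = 0.388; exact permutation p = 0.405) and -0.11 ± 0.21 (SE; unadjusted edgeR p = 0.595; exact permutation p = 0.746). The inhibitors p57 and p27 (Cdkn1c and Cdkn1b) had -0.36 ± 0.36 (SE; unadjusted edgeR p = 0.332; exact permutation p = 0.611) and -0.13 ± 0.14 (SE; unadjusted edgeR p = 0.378; exact permutation p = 0.476). E2f3, an activating E2F factor, and Tfdp2, a binding partner of the E2F factors, had -0.24 ± 0.17 (SE; unadjusted edgeR p = 0.179; exact permutation p = 0.198) and -0.35 ± 0.27 (SE; unadjusted edgeR p = 0.220; exact permutation p = 0.214).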

How the data were processed

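Back skin RNA of mice was sequenced from both ends after capture of polyadenylated RNA, with libraries that mark the strand. Raw counts for each gene were deposited beside a second table of FPKM values, the latter having been scaled to length and depth by the authors. The submitters' processing notes name HISAT, StringTie, DESeq2 and the build mm10, with no version or role. The annotation release and the strand setting of the counting are not given in the sources used here. The FPKM table repeats the counts in 9 columns, which were not used.

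The 48 members, the other gene lists and the tests were chosen with earlier results of these data known. edgeR 4.0.16 under R 4.3.3 was fitted to the counts (TMM, filterByExpr, quasi-likelihood test, no covariate), with Benjamini-Hochberg adjustment over 20817 genes. Calls required an adjusted p under 0.05 together with at least a 2-fold change. Intervals use 95% t quantiles with the degrees of freedom of the fit. Levels are CPM scaled to the total count of each library, without TMM factors. For single members all 126 splits of log2(CPM + 0.5) gave an exact permutation p (two-sided) for the difference in group means, at the smallest 0.00794. That difference is not the edgeR fold change printed beside it. The floor in a library was set at 3 counts, or 0.0377 to 0.0402 CPM, and covers counting error only. Steps were tested on simulated data with known changes.

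Values in every library were given for 8 usual markers (Mki67, Top2a, Pcna, Mcm2, Cdk1, Ccnb1, E2f1 and Foxm1), the 5 members with the smallest p, the 3 with the highest and the 3 with the lowest mean FPKM, members whose groups do not overlap (0), and members with an outlying library by Dixon's ratio. In each other list the 2 genes with the smallest p were named. Values of Gins2 and Ube2c in every library were added after they were seen.

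Alternatives were DESeq2 size factors, DESeq2 1.42.0 (Wald test), limma 3.58.1 on log2(FPKM + 1), no filter, at least 10 counts in every library, a skeletal muscle score as covariate, leaving out each library, a replicate block, a pseudocount of 0.1, FPKM values and ranks. The order of libraries in the FPKM header as covariate and the subtraction of the median of genes of like GC content (20 bins) were chosen after seeing the data. GC content is that of the longest GENCODE M21 transcript, and promoters are from RefSeq (GRCm38.p6). Figures were drawn with matplotlib 3.10.9.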

Additional observations from a re-analysis of the deposited data

Results flagged for a closer look

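Foxm1 in the Model libraries was at 17.7, 14.9, 15.1 and 15.3 CPM. Library MXL1 stood above the other 3, with a gap to the nearest of them of 0.843 of the whole range, which is above Dixon's 95% critical value for 4 samples. This was 1 of 102 groups of libraries looked at, in which chance alone would give about 5.1 such values. No explanation was weighed.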

How the results depend on the processing

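No alternative called a member or gave a member an unadjusted p under 0.05. The smallest over all fits was 0.0766, for Bub1b without MR4_5. Over all tested genes the number called by edgeR was 0, against 2 with DESeq2's Wald test and 1 with a muscle covariate, none of them a member. The number at an unadjusted p under 0.05 was 326, against 905 without a filter on low counts, where more genes were tested, and 217 (without MR4_5) to 734 (without MXL1) when single libraries were left out. The median log2 fold change of the members ran from -0.21 to 0.11 over the libraries left out.

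Some fold changes changed sign, and the cause was not tested. For Mcm10 (-0.0050) the values were 0.026 with limma on FPKM, 0.023 with at least 10 counts in every library, 0.20 with the muscle covariate, 0.071 with the header order as covariate and 0.033 after GC subtraction. For Pcna (-0.0080) they were 0.038, 0.013, 0.055, 0.022 and 0.056 in the same order. With the muscle covariate Cdk1 was at 0.059, Mki67 at 0.0058 and Top2a at 0.048. Over the libraries left out, the log2 fold changes ran from -0.092 to 0.25 for Mcm2, from -0.23 to 0.28 for Mcm10, from -0.097 to 0.46 for Cdt1, from -0.11 to 0.12 for Pcna, from -0.32 to 0.14 for Cdk1, from -0.40 to 0.059 for Mki67 and from -0.33 to 0.12 for Top2a. Foxm1 in ranks was lower in FJDHF (exact permutation p = 0.73). Fold changes of Tyms, Cdk2, E2f1, Ccnb1, Cdc25c, Bub1b and Nusap1 kept their sign in each alternative fit, while in ranks the difference of Nusap1 was 0.

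The codes of MXL1 and MR1, MXL3_4 and MR3_4, and MXL_3 and MR3 share a number. The correlations of their deviations from the group means were 0.14, -0.075 and 0.091, so the codes were not taken as pairs. With a replicate block from these codes, 0 genes were called, 281 had an unadjusted p under 0.05, the median of the members was -0.087, and Mcm10 and Pcna were at 0.078 and 0.15.

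Every member had 65 counts or more in each library.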
